A study of Rattus norvegicus with 12 samples.

Results

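A set of 207 genes was taken to describe how intact rat liver with a biliary fistula of 24 h differed from sham liver, before any tissue was removed. A gene was a member when its level in each of 2 columns from rats with a fistula, named BF and BA, was at least 2-fold above or at least 2-fold below the column from sham-operated rats, named Cont. Of 14692 genes listed, 8459 had a mean of at least 1 RPKM over all 12 columns and were compared. RPKM is a read count divided by transcript length and by library size, so levels of different genes can be set side by side. Of the genes compared, 94 were higher in both fistula columns and 113 were lower in both, which is 1.11% and 1.34%.

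The study sequenced polyadenylated RNA of whole liver from male Sprague Dawley rats of 4 to 5 months at 0, 4, 12 and 24 h after partial hepatectomy (PH). A catheter in the common bile duct (fistula) or a sham operation was placed 24 h before PH, and all rats, sham included, carried a duodenal catheter with a continuous saline infusion. In 1 of the 2 fistula groups sodium taurocholate was also infused into the duodenum from 12 h before PH, so that this bile acid, and not the rest of bile, was given back to the gut. The authors averaged 2 sequencing runs into every column, the first on 1 rat and the second on combined RNA of 3 rats, and a value therefore draws on 4 rats. The paper calls the group with infusion BF + BA, whereas the sample descriptions attach the infusion to the titles that begin with BF, so both columns are named here only as BF and BA. Both carried a fistula, and membership does not depend on which was infused. There was 1 averaged value per group and time, so no difference below has a replicate check, an error or a p-value, and the number of reads behind each value is unknown.

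Bile acids are made from cholesterol in hepatocytes, secreted in bile, taken up again in the ileum and returned to the liver in portal blood, and a fistula breaks this circuit by draining bile outside the body. Hepatocytes lower the synthesis of bile acids when bile acids return, and they raise cholesterol synthesis through the transcription factor SREBP2 when their sterols run low. The liver also answers surgery and infection with the acute phase response, in which interleukin 6 and related cytokines act through STAT3 and C/EBP factors to raise the secretion of a group of plasma proteins.

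The 3 columns at 0 h were alike in their broad make-up. Summed RPKM was 745584 in Cont, 785092 in BF and 769142 in BA, and the 10 most abundant genes took 31.5%, 33.8% and 34.3% of it. Hepatocyte markers were abundant in all columns, with albumin (ALB) at 99928 RPKM in Cont, 90662 in BF and 87628 in BA, and 9 of the 10 marker genes listed passed the filter. A value of 0 in the table is not proof that a gene is silent, since ABCB11, the bile salt export pump of hepatocytes, is listed at 0 in all 12 columns. CYP7A1, the rate-limiting enzyme of bile acid synthesis, was at 60.0 RPKM in Cont, 387 in BF and 54.9 in BA. CYP8B1, which sets the cholic acid share of bile acids, was at 136 RPKM in Cont, 1576 in BF and 110.2 in BA. Neither was a member, because only the BF column stood above Cont. The column high in both genes is thus the one whose sample description names the infusion and whose title does not. The median log2 ratio of all genes compared was -0.18 in BF and -0.097 in BA, and member ratios are to be read against that shift. Rescaling each column so that this median was 0 gave 115 higher and 83 lower genes in place of 94 and 113.

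The size of the difference varied widely among members. At least 4-fold in both columns was reached by 25 of the 94 higher and 14 of the 113 lower genes. The median log2 ratio, computed after adding 1 RPKM to each value, was 1.501 in BF and 1.73 in BA for higher members and -1.56 and -1.61 for lower members, by construction beyond 1 in size. The median Cont level was 24.7 RPKM for higher and 50.8 RPKM for lower members, against 11.2 RPKM for all genes compared, and the Cont level of single members ranged from 0.23 to 23256 RPKM. Higher members together took 6.34% of summed RPKM in Cont, 23.5% in BF and 25.3% in BA. Lower members took 8.39%, 3.06% and 3.05%. Each fistula column alone gave more genes, 146 higher and 183 lower in BF and 158 higher and 182 lower in BA, and none lay past the limit in opposite directions. Both ratios use the same Cont column, so an error in that column would move them the same way.

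**Figure D1:**
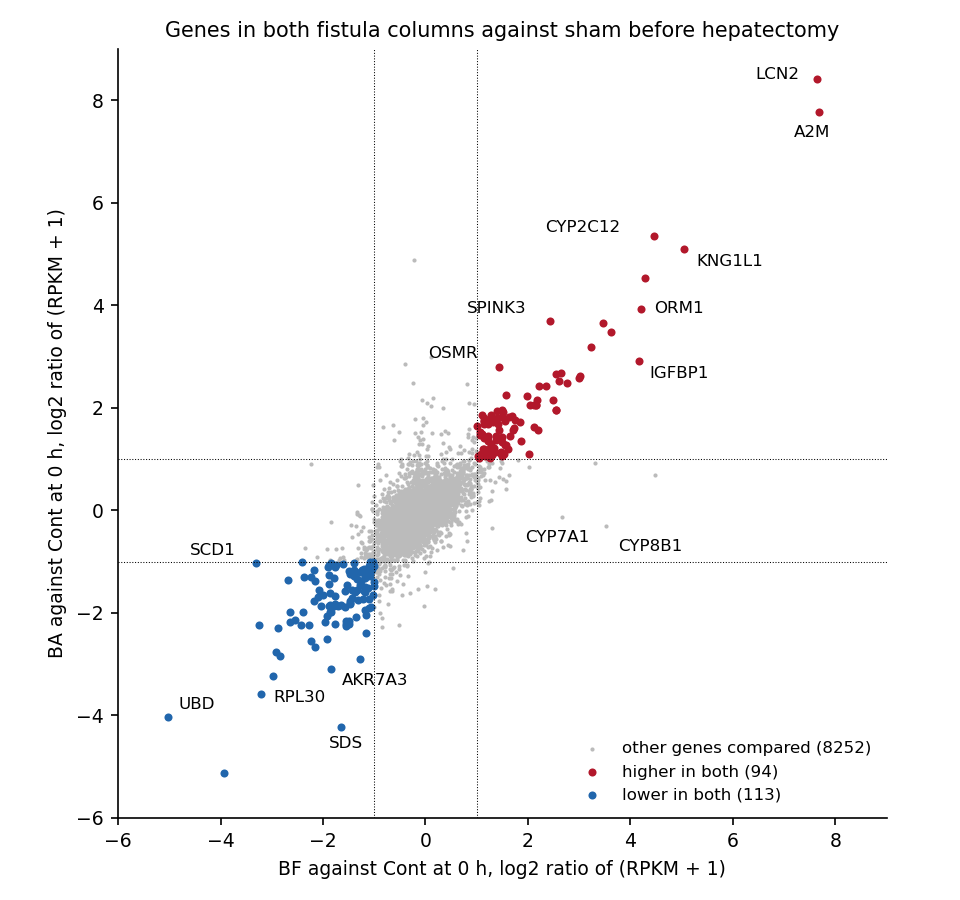
Each point is 1 of the 8459 genes compared, with the log2 ratio of BF to Cont at 0 h on the x axis and that of BA to Cont on the y axis, both after adding 1 RPKM. Dotted lines mark the 2-fold limits. The 94 higher members (red) reach from just above the limit to LCN2 and A2M at the top right, the 113 lower members (blue) reach to UBD at the far left, and CYP7A1 and CYP8B1 lie to the right along the BF axis alone.

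Genes of the positive acute phase response were the most heavily represented group. Of 34 compared, 21 were higher in both fistula columns and none was lower, against 1.11% and 1.34% of all genes compared. The median log2 ratio of the list was 1.21 in BF and 1.58 in BA. The 6 highest-ranked were A2M, LCN2, KNG1L1, ORM1, KNG1 and LBP. A2M, alpha-2-macroglobulin, a broad inhibitor of proteases, was at 7.61 RPKM in Cont, 1772 in BF and 1892 in BA. LCN2, lipocalin 2, which binds bacterial siderophores, was at 3.03 RPKM in Cont, 808 in BF and 1388 in BA. In Cont both lay below the median level of all genes compared, 11.2 RPKM.

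The T-kininogen gene KNG1L1, which encodes a major acute phase protein of the rat, was at 282 RPKM in Cont, 9379.5 in BF and 9716 in BA. Kininogen 1 (KNG1) was at 1036 RPKM in Cont, 12811 in BF and 11521 in BA. KNG1 and KNG1L1 are near-identical, so the split of reads between them is uncertain, but each was far above Cont in both columns. ORM1, alpha-1-acid glycoprotein, was at 986 RPKM in Cont, 18261 in BF and 15033 in BA. LBP, which carries bacterial lipopolysaccharide to its receptor, was at 48.7 RPKM in Cont, 465 in BF and 452 in BA. For these genes the level in Cont was a small part of that in either fistula column, and BF and BA lay close together.

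Abundant plasma proteins with a high sham level were also members, with smaller ratios. HPX, hemopexin, which binds free heme, was at 6349 RPKM in Cont, 26231 in BF and 26538 in BA. HP, haptoglobin, which binds free hemoglobin, was at 12347 RPKM in Cont, 44376 in BF and 40904 in BA. The fibrinogen chains FGA, FGB and FGG, which form the clot, were all higher. FGB was at 4764 RPKM in Cont, 10930.1 in BF and 15792 in BA, with log2 ratios of 1.20 in BF and 1.73 in BA, and BA was above BF for all 3 chains. FGL1, a fibrinogen-like protein secreted by hepatocytes, was at 499.9 RPKM in Cont, 3133 in BF and 3202 in BA. The remaining higher members of the list were CP, ITIH4, SERPINA3N, TIMP1, SERPING1, C4BPA, C4BPB, IL1RN and SAA4, the last a constitutive serum amyloid A.

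Not every acute phase gene was a member. CRP, C-reactive protein, which in the rat is abundant without inflammation, was at 13016 RPKM in Cont, 16089 in BF and 13069 in BA. HAMP, hepcidin, which limits iron export into plasma, was at 1066 RPKM in Cont, 726 in BF and 806 in BA. APCS, CD14, PROC and PLG also lay within 2-fold of Cont. Of 16 genes known to be lowered in the acute phase, 1 was a member, the protease inhibitor MUG1, at 1128 RPKM in Cont, 540.4 in BF and 501 in BA. The median of these 16 genes was -0.33 in BF and -0.58 in BA. With columns rescaled on the median of all genes, none of the 16 was a member, and their median was -0.15 in BF and -0.48 in BA. Outside the 16, LOC297568, described as alpha-1-inhibitor III, was a lower member, at 3063 RPKM in Cont, 1106 in BF and 1299 in BA. Its log2 ratios before rescaling were -1.47 in BF and -1.24 in BA. The list holds this inhibitor as A1I3, a name that was not matched to this entry. Transthyretin (TTR), which carries thyroxine, missed the limit in BF, at 20517 RPKM in Cont, 10389.6 in BF and 9888 in BA, with log2 ratios of -0.98 in BF and -1.05 in BA.

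The promoters of acute phase genes are known for sites of C/EBP factors and STAT3, and windows from 250 bases before to 50 bases after the start of the gene were searched in RefSeq sequences (GRCr8 assembly) on both strands. A window was found for 151 of the 207 members, and a gene with several windows was counted once if any of them matched. The C/EBP letters TTGCNNAA were present in 11.4% of 27457 genes with a window, in 21.7% of 69 higher and 17.5% of 80 lower genes. Of the 14 acute phase members with a window, 9 held them (LCN2, ORM1, KNG1, HPX, ITIH4, C4BPA, FGA, FGB and CP). The STAT3 letters TTCCNGGAA were rarer, in 1.39% of all, 1.45% of higher and 3.75% of lower genes, and their looser form TTCNNNGAA, which contains every strict match, was in 9.39%, 11.6% and 12.5%. The NF-kB letters GGGNNNNTCC were in 19.4% of all, 36.2% of higher and 13.8% of lower genes. The windows printed 5′ to 3′, with C/EBP and STAT matches in capitals, are those of the 3 highest-ranked acute phase members with C/EBP letters, of FGA, the 1 acute phase member of the 14 with the strict STAT3 letters, and of CISH, the highest-ranked lower member with them. In GRCr8 the windows lie, for LCN2 at chr3:36081731-36082030 on the minus strand, for ORM1 at chr5:81788259-81788558 on the plus strand, for KNG1 at chr11:91340099-91340398 on the minus strand, for FGA at chr2:170671919-170672218 on the plus strand and for CISH at chr8:116850719-116851018 on the plus strand.
LCN2: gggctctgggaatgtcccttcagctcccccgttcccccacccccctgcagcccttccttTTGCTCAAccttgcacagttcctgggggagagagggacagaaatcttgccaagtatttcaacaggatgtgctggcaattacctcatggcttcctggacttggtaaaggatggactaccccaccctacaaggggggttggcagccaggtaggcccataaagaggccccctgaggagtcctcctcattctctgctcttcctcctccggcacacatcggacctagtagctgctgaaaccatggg
ORM1: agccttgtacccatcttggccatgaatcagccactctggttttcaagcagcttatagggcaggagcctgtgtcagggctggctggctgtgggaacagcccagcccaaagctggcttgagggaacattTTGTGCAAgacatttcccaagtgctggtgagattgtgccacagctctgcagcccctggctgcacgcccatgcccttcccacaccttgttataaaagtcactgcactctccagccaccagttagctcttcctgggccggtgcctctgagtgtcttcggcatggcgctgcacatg
KNG1: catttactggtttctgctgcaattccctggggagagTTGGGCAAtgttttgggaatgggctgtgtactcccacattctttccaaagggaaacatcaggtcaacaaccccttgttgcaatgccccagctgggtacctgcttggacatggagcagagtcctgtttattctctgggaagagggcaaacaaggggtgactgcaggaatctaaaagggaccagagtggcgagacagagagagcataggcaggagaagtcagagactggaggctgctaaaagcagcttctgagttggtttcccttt
FGA: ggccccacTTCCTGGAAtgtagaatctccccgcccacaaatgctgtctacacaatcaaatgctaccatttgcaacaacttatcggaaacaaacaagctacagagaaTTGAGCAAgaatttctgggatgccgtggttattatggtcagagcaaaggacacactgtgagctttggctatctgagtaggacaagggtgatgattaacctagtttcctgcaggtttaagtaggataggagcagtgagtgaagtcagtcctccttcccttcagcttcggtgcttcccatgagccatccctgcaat
CISH: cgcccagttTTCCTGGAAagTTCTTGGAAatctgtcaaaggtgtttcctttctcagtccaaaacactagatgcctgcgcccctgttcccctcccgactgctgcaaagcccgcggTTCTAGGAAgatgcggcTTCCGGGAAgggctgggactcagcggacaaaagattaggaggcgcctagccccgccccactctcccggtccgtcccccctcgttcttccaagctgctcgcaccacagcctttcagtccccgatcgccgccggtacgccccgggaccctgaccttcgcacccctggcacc
The first 3 windows hold 1 C/EBP match each, at -191, -123 and -214 from the start. The FGA window holds a C/EBP match at -144 and a STAT3 match at -242. CISH encodes a suppressor of cytokine signalling that STAT5 induces, and its window holds 4 matches to the looser letters, 2 of them strict, and no C/EBP match. A match is a run of letters and was not tested as a binding site.

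The median log2 ratio of complement and coagulation genes, which overlap with the acute phase list, was 0.35 in both columns. Of 47 compared, 9 were higher and none was lower, against 1.11% and 1.34% of all genes compared. Apart from the fibrinogen chains, C4BPA, C4BPB and SERPING1, these were C1S, C9 and F7. C9, a pore-forming component of the terminal complex, was at 985 RPKM in Cont, 2176 in BF and 2274 in BA. F7, which starts the extrinsic clotting pathway, was at 30.8 RPKM in Cont, 75.2 in BF and 63.6 in BA. The iron and metal list had 3 higher genes of 22. Of the metallothioneins, which bind zinc and copper, MT2A was at 38.0 RPKM in Cont, 314 in BF and 238 in BA. MT1A was at 59.3 RPKM in Cont, 350.1 in BF and 233 in BA. CP, the copper-carrying ferroxidase ceruloplasmin, was the third, and it was the most abundant of them at 1099 RPKM in Cont, 2432 in BF and 2438 in BA. The zinc importer SLC39A4 was the 1 lower gene, at 35.5 RPKM in Cont, 10.7 in BF and 9.15 in BA.

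Of 21 genes of IL-6 and STAT3 signalling, STAT3, OSMR and BCL3 were higher and none was lower, against 1.11% higher among all genes compared, and the median of the list was 0.25 in BF and 0.40 in BA. The transcription factor STAT3 was at 33.5 RPKM in Cont, 79.8 in BF and 91.9 in BA. The oncostatin M receptor gene OSMR was at 0.88 RPKM in Cont, 4.08 in BF and 12.2 in BA. BCL3, a nuclear partner of NF-kB, was at 6.21 RPKM in Cont, 14.0 in BF and 19.9 in BA. In all 3 genes BA was above BF. SOCS3, a feedback inhibitor that STAT3 induces, was at 11.3 RPKM in Cont, 12.2 in BF and 17.4 in BA and was not a member. With the limit computed after adding 5 RPKM, 1 of STAT3, OSMR and BCL3 remained a member.

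CXCL1, a chemokine that attracts neutrophils, was at 1.66 RPKM in Cont, 28.2 in BF and 32.6 in BA. S100A8, a subunit of calprotectin, was at 0.63 RPKM in Cont, 8.58 in BF and 9.28 in BA. Its partner S100A9 was at 2.25 RPKM in Cont, 13.5 in BF and 12.6 in BA. Both are neutrophil markers, and of the 5 neutrophil marker genes compared these were the members called. The summed level of the 16 marker genes listed was 9.29 RPKM in Cont, 28.2 in BF and 29.6 in BA. The granule genes MPO and ELANE were at or below 0.03 RPKM in all 3 columns. Other listed genes below the filter went both ways, with CSF3R at 0.22 RPKM in Cont, 0.7 in BF and 0.53 in BA. MMP8 was at 0.05, 0.21 and 0.34 RPKM and NP4 at 0.43, 0.02 and 0 in the same order. In whole liver, more cells of a type and more RNA per cell cannot be told apart. None of 14 macrophage and Kupffer cell markers was a member. Their sum was 578 RPKM in Cont, 499.8 in BF and 511 in BA. Erythroid markers summed to 495 RPKM in Cont, 286 in BF and 195 in BA, and the mesothelial marker MSLN was at 0.31 RPKM in Cont, 2.49 in BF and 3.24 in BA. The part of these cells in the results was not tested.

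**Figure D2:**
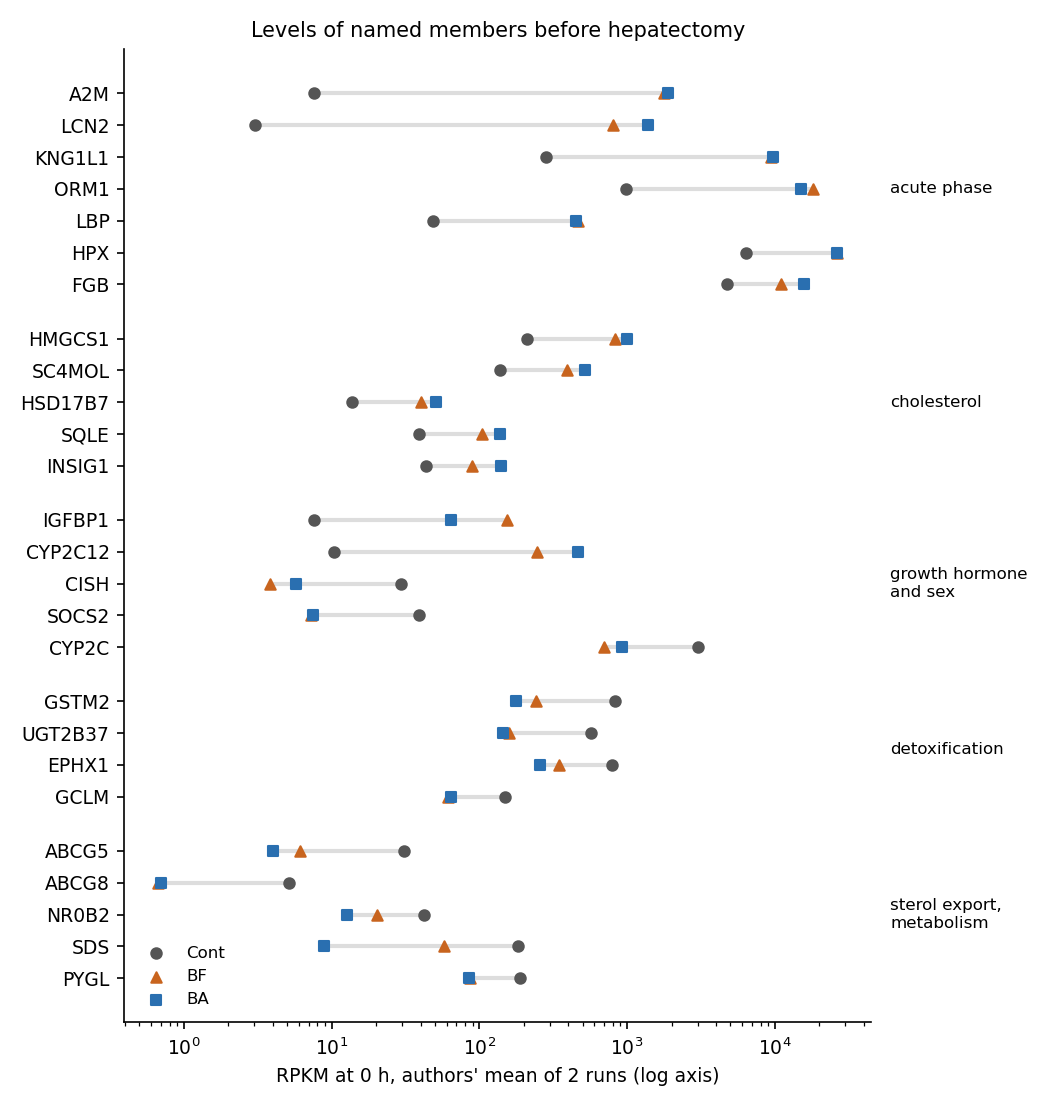
Level of 26 named members at 0 h in RPKM on a log axis, with Cont as circles, BF as triangles and BA as squares, each the authors' mean of 2 runs, grouped by role. In acute phase and cholesterol genes the circle lies left of both other symbols, in the detoxification and sterol export groups it lies right of both, and the BF and BA symbols mostly lie next to each other.

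The cholesterol pathway was the next group. Of 24 genes of cholesterol synthesis and other SREBP2 targets, 11 were higher in both fistula columns and none was lower. The shares of all genes compared were 1.11% higher and 1.34% lower. Of the 24 genes, 23 were above Cont in both. The list median was 0.97 in BF and 1.35 in BA. HMGCS1, which condenses acetyl units to HMG-CoA at the entry of the pathway, was at 211 RPKM in Cont, 833 in BF and 992 in BA. SC4MOL, the sterol C4 methyl oxidase now named Msmo1, was at 137 RPKM in Cont, 391 in BF and 520.2 in BA. HSD17B7, a ketoreductase of the same demethylation steps, was at 13.7 RPKM in Cont, 40.1 in BF and 50.9 in BA. All 3 were higher in BA than in BF.

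SQLE, which makes the epoxide of squalene, was at 39.2 RPKM in Cont, 105 in BF and 139 in BA. The lanosterol synthase gene LSS was at 31.4 RPKM in Cont, 70.9 in BF and 107 in BA. MVD, which yields isopentenyl diphosphate, was at 10.8 RPKM in Cont, 25.2 in BF and 40.3 in BA. Further members were DHCR7, ACAT2, IDI1, FDFT1 and INSIG1, the last a sterol sensor that holds the SREBP complex in the endoplasmic reticulum. Members thus stood at the entry, in the middle and at the end of the pathway. INSIG2, the sterol sensor that predominates in liver of fasted animals, was a lower member, at 309 RPKM in Cont, 144 in BF and 81.7 in BA. The SREBP letters TCACNCCAC were in 1.25% of all genes with a promoter window and in none of the 9 cholesterol members that had one.

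Fatty acid genes did not share this pattern. Of 16 genes of fatty acid synthesis, ACSS2 was higher, at 27.7 RPKM in Cont, 62.3 in BF and 95.5 in BA. It makes acetyl-CoA from acetate. The stearoyl-CoA desaturase SCD1, which the list does not hold under this name, was lower and differed between the fistula columns, at 50.4 RPKM in Cont, 4.21 in BF and 24.1 in BA. Among 33 genes of fatty acid oxidation and PPARA targets, CYP4A2 and CYP4A3, omega-hydroxylases of fatty acids, were higher, with CYP4A2 at 192 RPKM in Cont, 625 in BF and 694 in BA. They are near-identical and may share reads.

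Of the 94 higher members, 46 were in none of the pathway lists, and 4 of these, SPINK3, S100A8, S100A9 and MSLN, were in lists of cell type markers. PCOLCE, an enhancer of procollagen processing, was at 4.65 RPKM in Cont, 44.1 in BF and 32.8 in BA. The citrate transporter gene SLC13A5 was at 8.54 RPKM in Cont, 57.1 in BF and 53.8 in BA. SLC13A3, which carries dicarboxylates, was at 13.2 RPKM in Cont, 63.8 in BF and 41.0 in BA. BF was above BA for PCOLCE and SLC13A3, and the fistula columns were close for SLC13A5. ISYNA1, which makes inositol phosphate from glucose phosphate, was at 10.7 RPKM in Cont, 53.4 in BF and 61.9 in BA. PRG4, a lubricating proteoglycan also made in liver, was at 30.2 RPKM in Cont, 158 in BF and 167 in BA. SPINK3, a trypsin inhibitor, was at 10.7 RPKM in Cont, 62.3 in BF and 151 in BA. In the BA column SPINK3 was more than 2-fold above BF. ABHD3, a phospholipase, was at 4.19 RPKM in Cont, 28.1 in BF and 22.1 in BA. UGT2B, a glucuronosyltransferase of a family whose members share sequence, was at 122 RPKM in Cont, 829 in BF and 685 in BA. A further 1 of the 20 highest-ranked genes has a locus number for a name.

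Genes of the growth hormone axis contained members in both directions. IGFBP1, a binding protein of insulin-like growth factors that insulin represses, was at 7.62 RPKM in Cont, 155 in BF and 63.8 in BA. SOCS2, a feedback inhibitor induced by growth hormone through STAT5, was at 38.7 RPKM in Cont, 7.24 in BF and 7.46 in BA. CISH, of the same family, was at 29.4 RPKM in Cont, 3.85 in BF and 5.76 in BA. IGFBP1 was thus high and both inhibitors low in each fistula column. The growth hormone receptor gene GHR was at 206 RPKM in Cont, 218 in BF and 215 in BA. IGF1, the growth factor it induces, was at 552 RPKM in Cont, 275 in BF and 308 in BA. IGF1 reached the limit in BF and missed it in BA. Of the 16 genes of this list 1 was a higher and 2 were lower members, against 1.11% and 1.34% of all genes compared.

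Several members are known for a level in rat liver that depends on sex through the pattern of growth hormone secretion. CYP2C12, a P450 abundant in female rat liver, was at 10.3 RPKM in Cont, 247 in BF and 463 in BA in these male rats. CYP2C, the RefSeq synonym of the male-specific Cyp2c11, was at 2997 RPKM in Cont, 696 in BF and 926 in BA. CYP3A18, also male-predominant, was at 855 RPKM in Cont, 235 in BF and 239 in BA. These P450 genes thus differed in opposite directions, the female-predominant one up and the male-predominant ones down. Alpha-2u globulins, carrier proteins made in male liver, were also lower, with OBP3 at 2668 RPKM in Cont, 1066 in BF and 793 in BA. The globulin LOC298116, the most abundant lower member in Cont, was at 23256 RPKM in Cont, 10147 in BF and 10543 in BA. Another, LOC298109, was at 1973 RPKM in Cont, 843 in BF and 594 in BA. Other sex-dependent genes stayed within 2-fold. The male-predominant CYP2A2 was at 420.3 RPKM in Cont, 476 in BF and 351 in BA. CYP3A2 was at 2405 RPKM in Cont, 2014 in BF and 1569 in BA, and the female-predominant CYP2C7 was at 809 RPKM in Cont, 866 in BF and 770.5 in BA. A list of 9 such genes, chosen after their values were seen, holds CYP2C13 and CYP2A1, both within 2-fold, and neither LOC298116 nor LOC298109. Of its 9 genes 1 was higher and 3 were lower.

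Members from drug and toxin metabolism were mainly lower. Among 27 genes of the P450 families 1 to 3, CYP2C12 was higher and CYP3A18, CYP2C, CYP2B1 and CYP2D4V1 were lower, with a list median of -0.49 in BF and -0.71 in BA. Of 31 phase II genes, which attach glucuronide, sulfate or glutathione, none was higher and 7 were lower, with medians of -0.56 and -0.77. The shares of all genes compared were 1.11% higher and 1.34% lower. UGT2B37, a glucuronosyltransferase, was at 572 RPKM in Cont, 159 in BF and 144 in BA. GSTM2, a glutathione transferase of the mu class, was at 825 RPKM in Cont, 242 in BF and 178 in BA. GSTM1 was at 1166 RPKM in Cont, 461 in BF and 463 in BA. Enzymes that attach glucuronide and glutathione were thus both among the lower members. The glucuronosyltransferase UGT2B, given above and outside the list, was a higher member. GSTA3, of the alpha class, was at 1022 RPKM in Cont, 457 in BF and 249 in BA. The others were UGT2B17, GSTM7 and GSTK1, and their families share sequence, so reads may be split between copies. With columns rescaled on the median, 3 of the 7 stayed past the limit.

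Genes of the NRF2 antioxidant program gave 3 lower members of 24, against 1.34% of all genes compared. AKR7A3, which reduces aflatoxin dialdehyde, was at 127 RPKM in Cont, 34.7 in BF and 14.0 in BA. EPHX1, the microsomal epoxide hydrolase, was at 785 RPKM in Cont, 346 in BF and 259 in BA. GCLM, the modifier subunit in glutathione synthesis, was at 150.1 RPKM in Cont, 61.3 in BF and 64.3 in BA. Of the 113 lower members, 77 were in none of the pathway lists. INMT, a methyltransferase of indoles, was at 92.7 RPKM in Cont, 10.9 in BF and 9.01 in BA, one of the highest-ranked lower members. The carboxylesterase CES3 was at 253 RPKM in Cont, 39.8 in BF and 63.7 in BA. CRYL1, a gulonate dehydrogenase, was at 28.0 RPKM in Cont, 4.39 in BF and 5.14 in BA. KCNJ15, an inwardly rectifying potassium channel, and RGS3, which curbs G protein signalling, were also among the 20 highest-ranked, with KCNJ15 at 5.72 RPKM in Cont, 0.42 in BF and 0.15 in BA and RGS3 at 23.6 RPKM in Cont, 5.52 in BF and 3.32 in BA. A further 3 of these 20 have locus numbers for names.

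**Figure D3:**
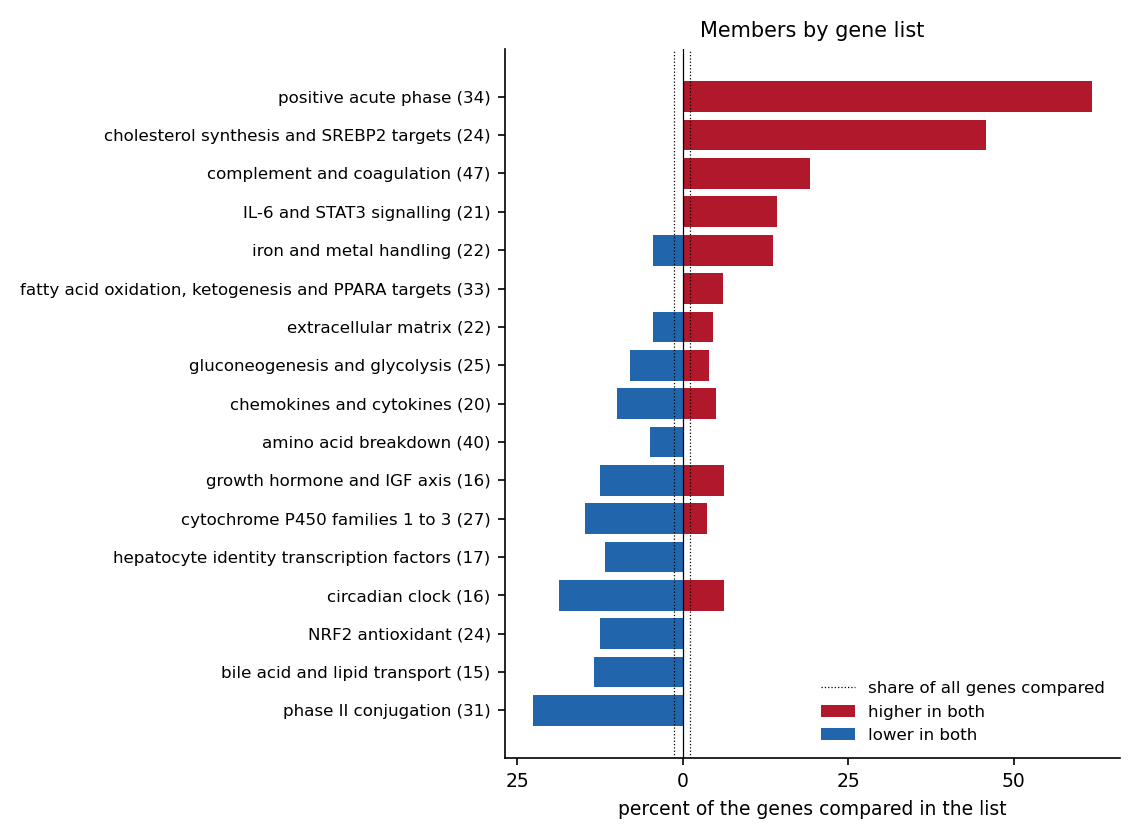
Percent of the compared genes of each list that were members, with higher members to the right (red) and lower members to the left (blue), for the 17 lists with at least 2 members and with the number compared in parentheses. Dotted lines mark the share of all genes compared, 1.11% higher and 1.34% lower. The positive acute phase list has 21 of 34 and the cholesterol list 11 of 24 to the right, and phase II conjugation has 7 of 31 to the left.

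Few genes in the lists of bile and sterol handling were members, and these few were lower. ABCG5 and ABCG8 are the paired subunits of the transporter that exports sterols into bile. ABCG5 was at 30.7 RPKM in Cont, 6.12 in BF and 4.0 in BA. ABCG8 was at 5.17 RPKM in Cont, 0.67 in BF and 0.7 in BA. These were the 2 members among 15 transport genes compared, where 1.34% of all genes compared were lower. The median of the 15 was -0.21 in BF and -0.13 in BA, near the -0.18 and -0.097 of all genes compared. SLC10A1, the main bile acid importer of hepatocytes, stayed within 2-fold, at 616 RPKM in Cont, 536 in BF and 446 in BA. NR0B2 (SHP), the repressor that the bile acid receptor FXR induces, was at 42.3 RPKM in Cont, 20.2 in BF and 12.7 in BA and was the 1 member of 15 bile acid sensing genes. NR0B2 left the lower list when columns were rescaled, and the median of the 15 sensing genes was -0.04 in BF and -0.11 in BA. Of 16 genes of bile acid synthesis none was a member, and the median was 0.31 in BF and -0.03 in BA. Members outside these lists included the organic anion transporters SLCO1A5, SLC21A4 and SLCO1A6, which are close relatives and may share reads, with SLCO1A5 at 18.1 RPKM in Cont, 5.74 in BF and 3.25 in BA.

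Few genes in the lists of intermediary metabolism were members, and most of these were lower. Lower members were 2 of 40 genes of amino acid breakdown and 1 of 12 of the urea cycle. Of 25 genes of gluconeogenesis and glycolysis 1 was higher and 2 were lower. Among all genes compared 1.11% were higher and 1.34% lower. The amino acid list median was -0.14 in BF and -0.60 in BA, against -0.18 and -0.097 for all genes compared. SDS, which deaminates serine for gluconeogenesis, was at 184 RPKM in Cont, 57.9 in BF and 8.85 in BA. BCKDHB, a subunit of the dehydrogenase of branched-chain amino acids, was at 77.7 RPKM in Cont, 20.7 in BF and 19.0 in BA. OTC, of the urea cycle, was at 617 RPKM in Cont, 266 in BF and 207 in BA. All 3 serve the handling of amino acid carbon or nitrogen. PYGL, liver glycogen phosphorylase, was at 189 RPKM in Cont, 86.9 in BF and 84.7 in BA. PFKFB1, which controls an allosteric activator of glycolysis, was at 86.6 RPKM in Cont, 22.6 in BF and 35.7 in BA. PFKM, the muscle form of phosphofructokinase, was at 14.4 RPKM in Cont, 1.17 in BF and 1.16 in BA. Against these, PCK2, the mitochondrial phosphoenolpyruvate carboxykinase, was higher, at 6.87 RPKM in Cont, 20.4 in BF and 16.1 in BA. The mitochondrial carrier SLC25A30 was at 60.4 RPKM in Cont, 7.18 in BF and 8.01 in BA.

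Clock and transcription factor genes added a few members. NR1D1 (REV-ERB alpha), a rhythmic repressor of the clock, was at 70.0 RPKM in Cont, 17.8 in BF and 16.0 in BA. DBP, a rhythmic activator, was at 77.6 RPKM in Cont, 29.1 in BF and 37.8 in BA. BHLHE40, another repressor, was at 58.7 RPKM in Cont, 15.1 in BF and 26.9 in BA. The 1 higher gene, NFIL3, which opposes DBP, was at 10.4 RPKM in Cont, 31.7 in BF and 23.2 in BA. Of 16 clock genes these 4 were members, while the core gene ARNTL was at 4.72 RPKM in Cont, 5.84 in BF and 4.31 in BA. The sampling hour of each group is not given in the sources used here. FOXA2, a transcription factor of hepatocyte identity, was at 29.5 RPKM in Cont, 8.02 in BF and 8.6 in BA. ONECUT1, another, was at 32.1 RPKM in Cont, 11.3 in BF and 10.3 in BA. The others of the 17 compared were not members, HNF4A included, at 174 RPKM in Cont, 169 in BF and 218 in BA. None of the genes compared of the cell cycle (32), interferon response (26), ER stress (27), heat shock (14), proteasome (30) and cytoskeleton (26) lists was a member. Among all genes compared 1.11% were higher and 1.34% lower, so a list of this size could hold no member by that share alone. The same holds for the bile acid synthesis genes and macrophage markers above.

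The lower list also held genes that were high in only some columns. UBD, a ubiquitin-like modifier, was at 40.5 RPKM in Cont, 0.28 in BF and 1.52 in BA, the lowest log2 ratio of any member in BF. RPL30, a ribosomal protein, was at 13.1 RPKM in Cont, 0.52 in BF and 0.18 in BA, and ribosomal proteins are needed in every cell. At 4 h it was at 0.35, 26.5 and 0.44 RPKM in the same order. Genes of ribosomal proteins have near-identical copies, so its reads may be split. The chemokine CXCL14 was at 10.7 RPKM in Cont, 1.84 in BF and 2.19 in BA. LOX, which crosslinks collagen, was at 15.2 RPKM in Cont, 3.74 in BF and 3.45 in BA. A group of 9 lower members is known from gut epithelium, among them DEFA24, DEFA9, LGALS4, ZG16, TFF3, CLCA4, REG3G and GUCA2A. DEFA24, an antimicrobial peptide of Paneth cells, was at 6.98 RPKM in Cont, 0.09 in BF and 0.62 in BA, and GUCA2A, guanylin, was at 3.54 RPKM in Cont, 0 in BF and 1.03 in BA. Their summed level was 40.5 RPKM in Cont, 0.95 in BF and 8.93 in BA at 0 h. It was 55.1 in Cont at 12 h and 64.7 in BF at 24 h, and between 0.41 and 14.0 in the other columns, so that its 3 highest values came from columns with and without a fistula. Of the 6 intestinal epithelium markers compared, TFF3 was the 1 member. Of this list, VIL1, SI and CDX2 were low in all columns, with their highest values in columns where the 9 genes were high. VIL1 was at 0.80 RPKM in Cont at 0 h, 0.95 in Cont at 12 h and 1.29 in BF at 24 h, and at most 0.27 in the others. SI was at 1.05 RPKM in Cont at 0 h and 1.14 in BF at 24 h, and at most 0.29 in the others. CDX2 was at 0.33 RPKM in Cont at 12 h and 0.25 in BF at 24 h, and at most 0.08 in the others. SI was thus not high in Cont at 12 h, nor CDX2 in Cont at 0 h. FABP2 and FABP6 were also highest in BF at 24 h, at 23.8 and 5.33 RPKM, but did not follow the 9 genes elsewhere. FABP2 was at 4.62 RPKM in Cont, 4.21 in BF and 6.94 in BA at 0 h, and 12.8 in BA at 24 h. FABP6 was at 2.02 RPKM in Cont at 0 h and 3.27 in BA at 24 h. The part of gut tissue in these 9 values was not tested. Without the 9 genes 104 lower members remained. The 9 were picked by name, and at least LOC691259, a lower member with a like course, stayed among the 104. It was at 2.85 RPKM in Cont at 0 h, 4.63 in Cont at 12 h and 4.08 in BF at 24 h, and at most 0.81 in the others.

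**Figure D4:**
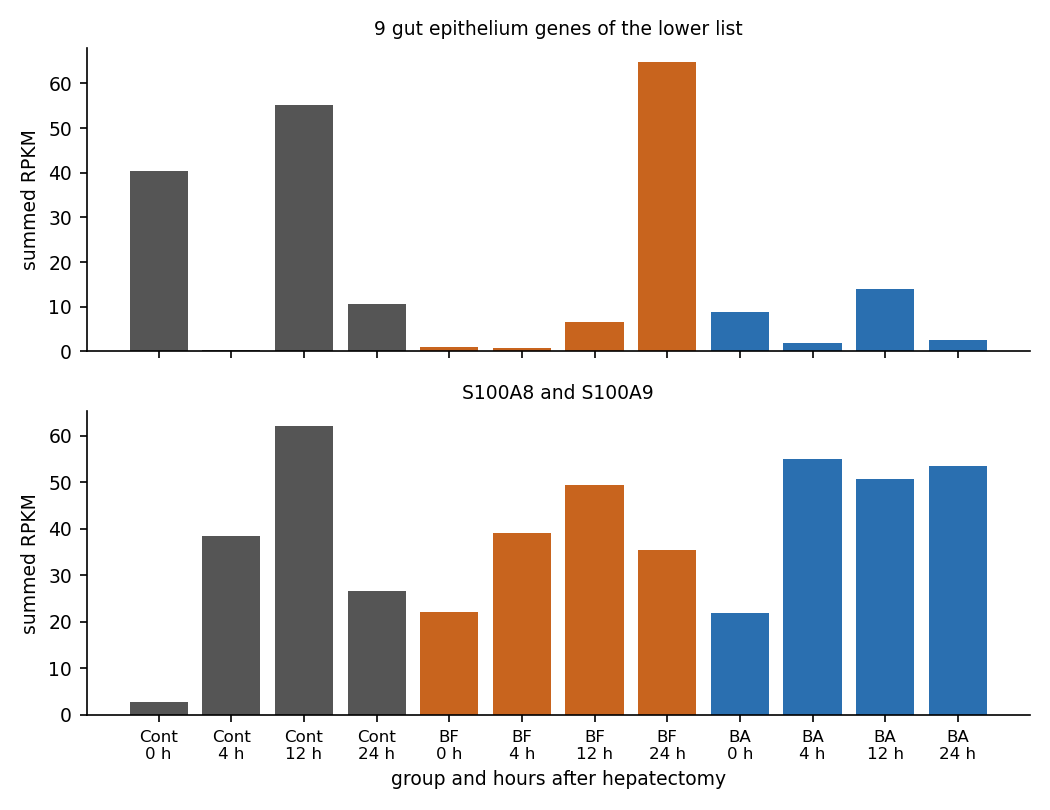
Summed RPKM of the 9 gut epithelium genes of the lower list (top) and of S100A8 and S100A9 (bottom) in each of the 12 columns, coloured by group. The gut genes stand high in Cont at 0 h (40.5), Cont at 12 h (55.1) and BF at 24 h (64.7), while the calprotectin genes are lowest in Cont at 0 h (2.88) and lie between 21.9 and 62.1 elsewhere.

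The BF and BA columns lay within 2-fold of each other for 91 of 94 higher and 102 of 113 lower members. Both are smaller shares than the 98.2% of all genes compared, and membership itself required both columns past the limit in the same direction. IGFBP1 was the higher member with BF more than 2-fold above BA, with a log2 difference of 1.26. OSMR and SPINK3 were the 2 with BA above BF, with differences of -1.37 and -1.26. Among lower members SDS, YC2, AKR7A3 and ACSM5 were higher in BF, by 2.58, 1.61, 1.25 and 1.23 on the log2 scale. SCD1, DUSP6 and ZG16 were higher in BA, with differences of -2.27, -1.42 and -1.32. YC2 is a glutathione transferase subunit, ACSM5 an acyl-CoA synthetase and DUSP6 a phosphatase of ERK. Since neither column has replicates, no such difference could be set against the spread between rats.

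At the limit, genes inside and outside differed little. INSIG1 (1.01 and 1.66) and CLEC2D6 (1.02 and 1.07) were the higher members nearest to it, and BTG1 (1.06 and 0.99) and RGS16 (1.81 and 0.99) the nearest outside. GSTK1 (-1.002 and -1.48) was the lower member nearest to it. CYP3A23/3A1 (-0.998 and -1.49) and SLC17A3 (-0.996 and -1.04) lay just outside.

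Columns at 4, 12 and 24 h after PH come from other rats and were not used to choose the direction of members, although their level entered the filter. At 4 h, 27 of the 94 higher members (28.7%) were again at least 2-fold above the Cont column of the same time in both fistula columns, where 0.556% of all genes compared were. At 12 h the count was 1, NUPR1, against 0.331% of all genes, and at 24 h it was 7 against 0.166%. Of the 113 lower members, 58 (51.3%) were again at least 2-fold lower at 4 h, against 1.77% of all genes, 20 at 12 h against 0.662%, and 20 at 24 h against 0.39%. The median log2 ratio of higher members went from 1.501 in BF and 1.73 in BA at 0 h to 0.88 and 0.83 at 4 h, 0.28 and 0.10 at 12 h, and 0.26 and 0.40 at 24 h. That of lower members went from -1.56 and -1.61 to -1.32 and -1.16, -0.52 and -0.46, and -0.27 and -0.70. At none of the later times were 63 higher and 34 lower members past the limit.

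By their median, the acute phase genes were close to Cont at 12 h, when Cont itself was high, but some top-ranked members stayed above it. At 12 h the log2 ratio was 0.93 in BF and 0.79 in BA for LCN2 and 1.21 in BF and 0.68 in BA for KNG1L1. For LBP it was 0.21 in BF and 0.02 in BA. A2M in Cont, BF and BA was at 939.8, 3486 and 4688 RPKM at 4 h, 4637, 7272 and 9188 at 12 h and 1142, 1272 and 4421 at 24 h. ORM1 was at 4907, 18532 and 16559, then 23834, 33818 and 31322 and then 16707, 18439 and 29269.5 RPKM. In both genes Cont at 0 h was the lowest of the 12 columns, which was so for 61 of the 94 higher members and for 4.46% of all genes compared. Higher members were chosen for a Cont level below BF and BA at 0 h, so these shares are not like for like. The comparisons with Cont at 0 h share that column. The median of the acute phase list was 0.44 in BF and 0.71 in BA at 4 h, 0.19 and 0.03 at 12 h, and 0.21 and 0.32 at 24 h.

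The cholesterol genes took another course. Their list median was 0.92 in BF and 0.88 in BA at 4 h, 0.43 and -0.03 at 12 h, and 1.20 and 0.57 at 24 h. HMGCS1 in Cont, BF and BA was at 58.0, 214 and 98.2 RPKM at 4 h, 134, 287 and 199 at 12 h and 112, 508 and 335 at 24 h, and was above Cont in both fistula columns each time. Of the 7 higher members past the limit at 24 h, HMGCS1, SC4MOL, HSD17B7 and IDI1 belong to this pathway, and the others were NUPR1, a stress-induced chromatin protein, IGFBP1 and SLC13A3. PCOLCE, which promotes collagen maturation, had the highest smallest ratio of the higher members over the 8 comparisons, 0.94 on the log2 scale. CYP2C12 reached 5.39 in BF and 2.63 in BA on the log2 scale at 4 h, -0.08 in BF and -0.31 in BA at 12 h and 0.82 in BF and 2.40 in BA at 24 h, with Cont at 330.3 and 126 RPKM at the last 2 times.

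Among lower members, PFKM and RGD1307603 were past the limit at all 3 later times, and among higher members none was. PFKM in Cont, BF and BA was at 10.1, 0.69 and 0.35 RPKM at 4 h, 6.26, 1.15 and 1.75 at 12 h and 18.5, 4.45 and 1.26 at 24 h. RGD1307603, a RefSeq synonym of the glutathione transferase Gstp3, was at 596, 202 and 124 RPKM at 0 h and 65.4, 26.0 and 17.7 at 24 h. The next most persistent by their smallest ratio were CYP2C (-0.99), DBP (-0.97), METTL7B (-0.91), the carboxylesterase LOC100125372 (-0.73), GSTM2 (-0.72) and PFKFB1 (-0.62). CYP2C was at 2089.8, 363 and 634 RPKM at 4 h and 623, 92.6 and 143 at 24 h, lower in both fistula columns each time. CISH and SOCS2 were past the limit again at 12 h and in neither case at 4 or 24 h. SOCS2 was at 34.9, 16.4 and 50.3 RPKM at 4 h, 24.0, 1.9 and 5.11 at 12 h and 9.27, 25.4 and 12.2 at 24 h. CISH was at 10.9, 9.31 and 12.3 RPKM at 4 h, 29.3, 6.94 and 4.46 at 12 h and 6.69, 13.5 and 12.6 at 24 h, and both genes were above Cont in both fistula columns at the last time. Of the 20 lower members past the limit at 12 h, 12 remained without the 9 gut epithelium genes, LOC691259 among them. Cont at 0 h was the highest of the 12 columns in 84 of 113 lower members and in 16.5% of all genes compared. Lower members were chosen for a Cont level above BF and BA at 0 h, so these shares are not like for like.

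**Figure D5:**
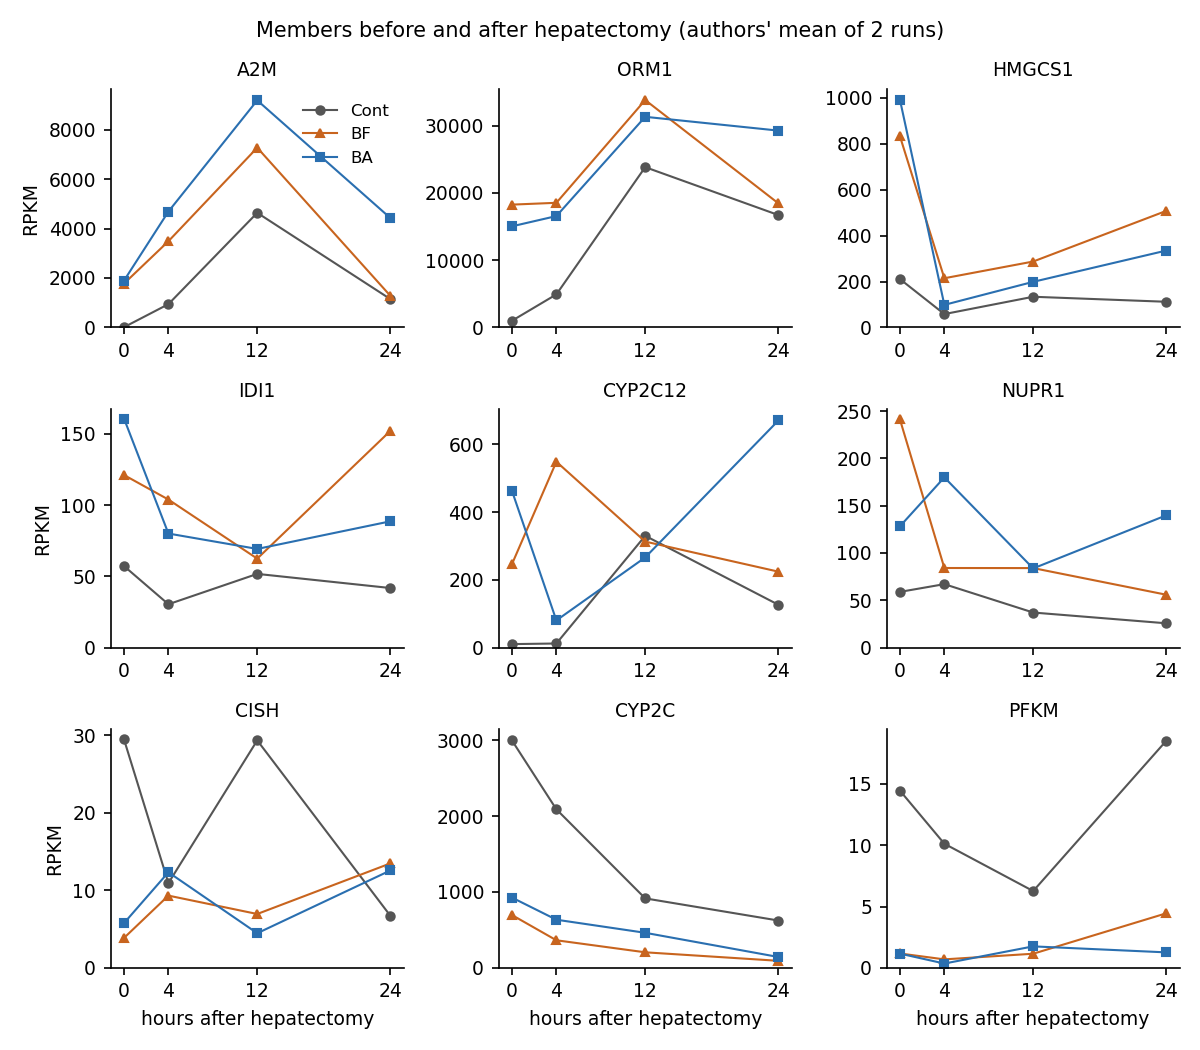
Level in RPKM (y axis, starting at 0) of 9 members against hours after hepatectomy (x axis) in Cont (grey circles), BF (orange triangles) and BA (blue squares), each point the authors' mean of 2 runs. A2M and ORM1 climb in Cont until 12 h but stay below both fistula columns. HMGCS1 stays above Cont throughout, and CYP2C and PFKM stay below it. CISH lies below Cont in both fistula columns at 0 and 12 h and above it in both at 24 h. At 4 h CISH lies above Cont in BA only.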

How the data were processed

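Reads from polyadenylated whole-liver RNA (50-cycle single reads) were converted to RPKM by the authors, who deposited 1 table with 2 decimals in which each column combines 2 runs. The weighting and the annotation are not given in the sources used here. The submitters' processing notes name CASAVA, Bowtie 0.12.2 and the builds rn4 and mm8, with no role. Of 14692 genes, 1 had no value and 18 names had been turned into dates, which were kept as listed. The 8459 genes whose mean across 12 columns reached 1 RPKM were kept, 1 RPKM was added, and log2 ratios to Cont of the same time were computed. Adding 1 RPKM understates differences of low genes. A difference counted when both fistula columns lay at least 2-fold from Cont in the same direction. With 1 averaged column per group there was no test.

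Members, gene lists and rules were chosen with earlier results of these data known. Lists were matched by symbol, older symbol or RefSeq synonym. The genes named are the 20 highest-ranked members per direction by the smaller of their 2 ratios, up to 6 per direction of each list, the genes nearest the limit, the most persistent, those at least 2-fold apart between BF and BA, and checks of tissue and labels. Names made of locus numbers were counted, apart from those named in the text after their values were seen. Some genes that the rule names are not reported here. Outside this rule, INSIG2, S100A9, the alpha-2u globulins, the gut epithelium and sex-dependent genes, the SLCO1A transporters and single unchanged list genes were chosen after their values were seen. Alternatives were other pseudocounts, filters, scalings and limits, each fistula column alone, and, chosen after seeing the data, leaving out the gut epithelium genes. Scripts were tested on simulated columns. Python 3.11.15, numpy 2.4.6, pandas 2.3.3 and matplotlib 3.10.9 were used.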

Additional observations from a re-analysis of the deposited data

Results flagged for a closer look

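RPL30 was below Cont in both fistula columns at 0 h and above it in both at 12 h, with log2 ratios of 4.19 in BF and 4.25 in BA at the later time (0.87 RPKM in Cont, 33.1 in BF and 34.6 in BA). Genes of IL-6 and STAT3 signalling had medians above 0 in both columns at 0 h (0.25 and 0.40) and below 0 at 4 h (-0.38 in BF and -0.28 in BA) and at 12 h (-0.41 in BF and -0.64 in BA). Each was picked out because both fistula columns lay on one side of Cont at 0 h and on the other later. The difference between times was not tested, and 1 averaged column per group and time allows no test of it.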

How the results depend on the processing

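No paired analysis was possible because each group and time has 1 averaged column. The 8 counts compared were those of higher and lower genes at 0 h (94 and 113) and of those still past the limit at 4, 12 and 24 h (27, 1 and 7 higher, 58, 20 and 20 lower). Of 92 such counts under alternatives, 50 stayed within 1.5 times. A limit of 1.5-fold gave 214 higher and 330 lower genes at 0 h, then 70, 21 and 25 higher and 171, 59 and 51 lower. A limit of 4-fold gave 25 and 14, then 5, 0 and 0 higher and 5, 2 and 0 lower. BF alone gave 146 and 183, then 50, 27 and 22 higher and 94, 48 and 37 lower, and BA alone 158 and 182, then 54, 10 and 20 higher and 101, 31 and 49 lower. Adding 5 RPKM gave 74 lower genes at 0 h, 35 at 4 h and 7 at 12 h, and adding 0.1 RPKM gave 9 higher genes at 12 h. A mean of at least 5 RPKM left 11 lower genes at 12 h, and leaving out the gut epithelium genes left 12. Rescaling on the median gave 2 higher genes at 12 h and 37 and 11 lower genes at 4 and 24 h, and rescaling on totals gave 3 higher genes at 12 h. Of 2100 log2 ratios of named genes under alternatives, 195 crossed the limit, 121 of them at 4-fold, and none changed sign. Without replicates or read counts, neither the spread between rats nor counting error can be given, and low values such as those of AK1 or SLC30A3 rest on an unknown number of reads.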
